A study of Mus musculus with 12 samples.

Results

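The genes that macrophages use to take up haem from red cells, break it down and store or export its iron were followed through 4 groups of sorted bone marrow cells. The 10 genes were chosen by name for their roles, with earlier results of these data known. They were Slc48a1, Hmox1, Blvra, Blvrb, Fth1, Ftl1, Slc40a1, Flvcr1, Spic and Bach1. They are 10 of the 18467 gene symbols in the deposited table, and all 10 had enough counts to be tested. Each group held 3 bulk RNA libraries from different mice, 12 in all, so the p-values measure the spread between libraries of different mice within a group.

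The mice were female Albino B6. Bone metastases were made by injecting E0771, a mouse breast cancer cell line, into the caudal artery at 8 weeks of age, and healthy mice, whose age is not given in the labels used here, supplied the normal marrow. General macrophages were sorted as CD11b and F4/80 positive cells, and niche macrophages as cells positive for VCAM1, CD163 and CCR3. The 4 groups are therefore general macrophages from normal marrow, general macrophages from metastatic marrow, and niche macrophages from each. The sample titles use the name general macrophages for both sorts, so the population was taken from the antigens. All marrow came from femur and tibia after lysis of red cells.

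Macrophages of the marrow, spleen and liver clear worn red cells and the nuclei cast off by erythroblasts. Haem freed in the lysosome leaves it through HRG1, the product of Slc48a1, and is opened by haem oxygenase 1 into iron, carbon monoxide and biliverdin, which biliverdin reductases turn into bilirubin. The iron is stored in ferritin or leaves the cell through ferroportin, the product of Slc40a1, while FLVCR1 can export intact haem. Haem induces the transcription factor Spi-C, encoded by Spic, by causing loss of BACH1, a repressor that also keeps Hmox1 silent and competes with NRF2 at the same DNA elements.

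Ferritin is controlled mainly at translation: iron regulatory proteins bind a hairpin, the iron-responsive element, near the start of the ferritin messages. The elements of the heavy and light chain genes are shown because RNA counts do not measure that step. The values below, for ferritin as for the other genes, are levels of message. Both lie in the 5′ UTR (GENCODE M21, GRCm38, which is mm10), in exon 1 of Ftl1 and of the 929-base Fth1 transcript, and in exon 2 of the 1494-base Fth1 transcript. The Fth1 element is at chr19:9982732-9982761 on the plus strand and the Ftl1 element at chr7:45459778-45459807 on the minus strand. Capitals mark the loop letters.
Fth1: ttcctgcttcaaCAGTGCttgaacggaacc
Ftl1: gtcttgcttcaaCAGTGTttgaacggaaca
A looser pattern of the element's letters was found in the 5′ UTRs of 1487 genes among 16257, or 9.15%. The stricter search that follows used letters taken from the Fth1 and Ftl1 elements, so matches in these genes were fixed beforehand. It cannot show that such elements are limited to ferritin genes. The elements of Fth1 and Ftl1 share 26 of 30 letters. The letters they share around the loop, TGCTTCAACAGTGNTTGAACGGAAC, were found on the message strand in the 5′ UTRs of 3 genes among 16257, namely Fth1, Ftl1 and the Ftl1 copy Ftl1-ps1.

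Library totals lay between 13687957 and 30332442 counts. Levels are CPM, which set each count against its library's total and were scaled between libraries, and 3 counts, the limit that a count of 0 allows, correspond to 0.109 to 0.243 CPM. Of the 10 genes listed as defining macrophages, which the labels' cell type was checked against, Csf1r was present at 51.6 to 283 CPM over the 4 groups and Adgre1, which encodes F4/80, at 64.0 to 589. In normal marrow 3 of the 10 were called higher in the niche sort (Mertk, Adgre1 and C1qb) and 1 lower (Lyz2), and with metastases 2 higher and 1 lower. Lyz2, lysozyme, which neutrophils and monocytes also express, was at 18240 to 21480 CPM in general and 6267 to 8470 in niche libraries of normal marrow and made up most of the list's sum of 19400 to 22530 and 8494 to 10110. C1qa, a complement gene of mature tissue macrophages, was at 0.275 to 13.6 CPM in general macrophages from normal marrow and at 70.5 to 149 in niche macrophages from normal marrow. The 12 neutrophil markers summed to 21290 to 23030 CPM in general and 10790 to 12580 in niche macrophages from normal marrow. Transcripts listed as markers of another cell type were thus present in both sorts, and which cells they came from was not tested. In such bulk libraries, fewer cells of a type and less RNA per cell cannot be told apart.

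The niche sort was first set against the general sort within each marrow state, the comparison of macrophages defined by erythroblastic island antigens with the wider myeloid population. In normal marrow the haem uptake, haem oxygenase, ferroportin and Spi-C genes were higher in niche macrophages and the repressor gene Bach1 was lower. By edgeR's quasi-likelihood test with Benjamini-Hochberg adjustment over 12882 genes, 4 of 10 genes were called higher and 1 lower, at an adjusted p under 0.05. Over all genes tested, 2.47% were called, 1.50% higher and 0.970% lower. In metastatic marrow 3 of 10 were called higher and 0 lower, where 0.831% of all genes were called, 0.574% higher and 0.256% lower. As the 10 genes were chosen with earlier results known, these shares and those below are given as a description.

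**Figure D1:**
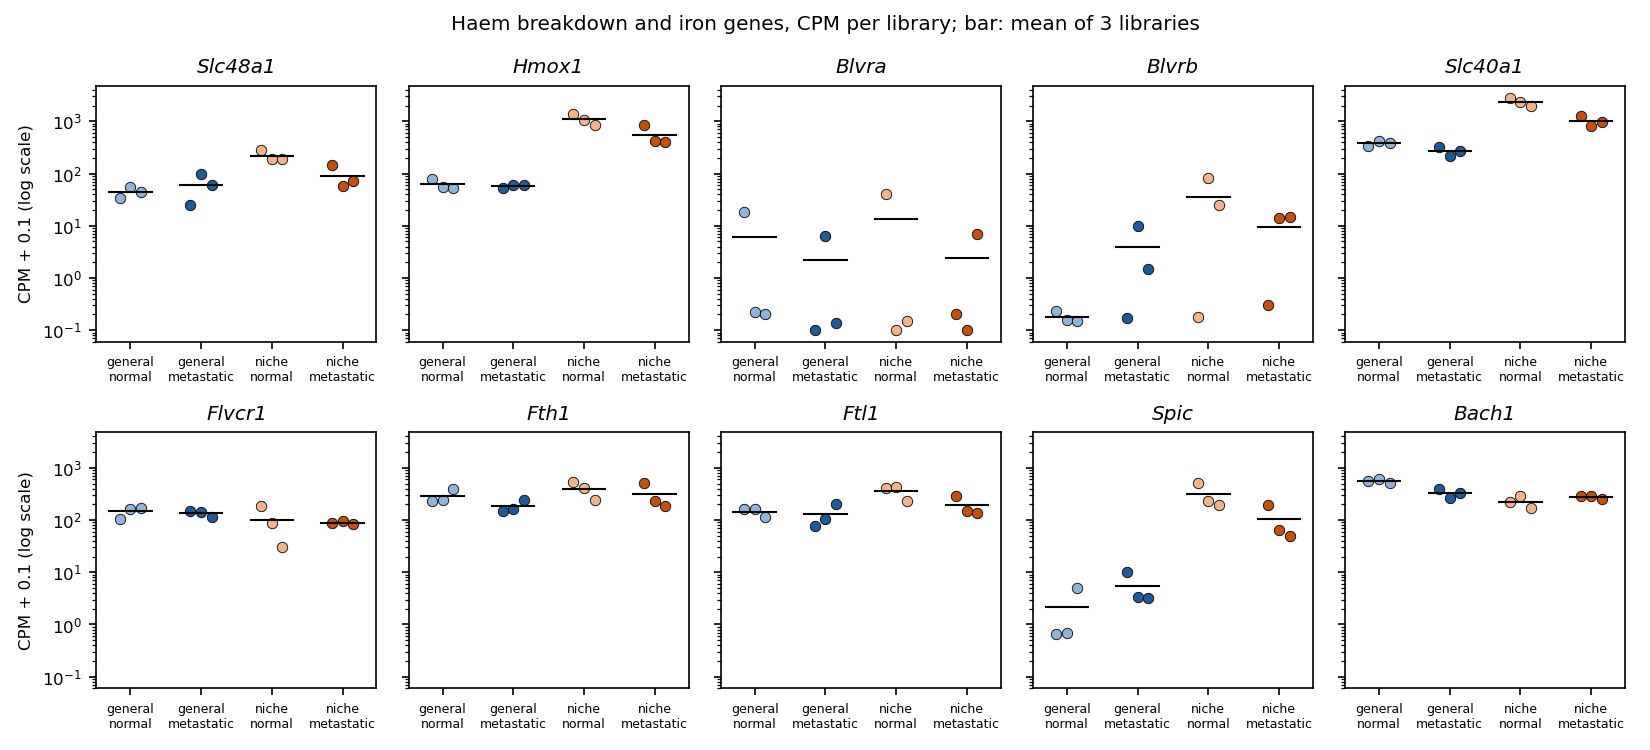
Level of each gene in each library, as CPM + 0.1 on a log axis; points are libraries and bars the means of 3. Hmox1, Slc40a1 and Spic are higher in every niche library than in any general library, and Blvra and Blvrb range from near 0 to high values within a group.

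Slc48a1, the lysosomal haem exporter, was at 33.5, 55.1 and 44.0 CPM in general macrophages from normal marrow and at 281, 193 and 186 in niche libraries A, B and C. The groups did not overlap, and the niche mean was higher by 2.32 ± 0.51 on the log2 scale (SE; edgeR adjusted p = 0.0154). With metastases the general libraries were at 25.4, 96.0 and 60.7 CPM and the niche libraries at 143, 57.1 and 73.2. These ranges overlapped, and the log2 fold change of 0.59 ± 0.48 (SE) did not pass (edgeR adjusted p = 1). The call in normal marrow was lost without any single general library from normal marrow, with edgeR adjusted p of 0.104, 0.0520 and 0.0786 without replicates 1, 2 and 3, and with limma-voom (adjusted p = 0.0751).

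Hmox1, which encodes the inducible haem oxygenase, was nearly level across the general libraries, at 76.9, 54.7 and 53.1 CPM without metastases and 51.8, 61.1 and 59.0 with them. Niche libraries held 1388, 1056 and 859 CPM in the normal state and 835, 422 and 404 in the metastatic state. The lowest niche library was thus above the highest general library by several fold. The niche sort was 17.9-fold higher in normal marrow (log2 fold change 4.16 ± 0.33, SE; edgeR adjusted p = 3.48e-07) and 9.67-fold higher in metastatic marrow (3.27 ± 0.32, SE; edgeR adjusted p = 9.70e-06).

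The biliverdin reductase genes gave no usable group level. In normal marrow, Blvra had 264, 2 and 2 counts in the general and 497, 0 and 1 in the niche libraries. With metastases it had 0, 136 and 1 counts in the general and 2, 0 and 185 in the niche libraries. A single library held nearly all Blvra counts of each group, and no Blvra comparison was called. Blvrb had 2, 1 and 1 counts in general macrophages from normal marrow, and 1, 1666 and 502 in niche libraries A, B and C. With metastases it had 2, 219 and 37 counts in general and 4, 313 and 391 in niche macrophages. Blvrb was at or under 3 counts in every general library from normal marrow, but also in niche library A, and it did not pass by edgeR (adjusted p = 0.122), although DESeq2 called it (adjusted p = 7.34e-05).

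Fth1, the ferritin heavy chain with ferroxidase activity, was at 230, 241 and 399 CPM in the general and 542, 406 and 247 in the niche libraries of normal marrow. The metastatic state gave 151, 163 and 244 CPM in the general and 511, 234 and 186 in the niche libraries. The sorts overlapped in both states, with log2 fold changes of 0.46 ± 0.38 and 0.74 ± 0.38 (SE; edgeR adjusted p = 0.574 and 0.625). Ftl1, the light chain that helps nucleate the iron core, was at 160.5, 161 and 114 CPM in the general and 402, 432 and 236 in the niche libraries of normal marrow. Every niche library was above every general library, but the log2 fold change of 1.30 ± 0.40 (SE) did not pass by edgeR (adjusted p = 0.101), whereas DESeq2 called it (adjusted p = 0.0251). In metastatic marrow Ftl1 ranged from 75.4 to 205 CPM in general and from 134 to 289 in niche macrophages, which overlap.

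The Ftl1 values are uncertain, because Ftl1-ps1 is nearly identical and the counting may have split reads between them. The copy, annotated as protein-coding, lies at chr13:74399694-74407346 on the plus strand, and its 938-base transcript matches Ftl1 at 906 of 910 aligned letters. The row of Ftl1-ps1 held between 37.5% and 66.7% of the counts of the ferritin light chain rows in a library, as the plot of those rows by library shows. With the rows summed, general macrophages from normal marrow were at 369, 437 and 243 CPM and niche macrophages at 776, 797.5 and 654.5. The niche libraries stayed above the general ones, and the summed log2 fold change of 1.09 did not pass either (edgeR adjusted p = 0.128).

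**Figure D2:**
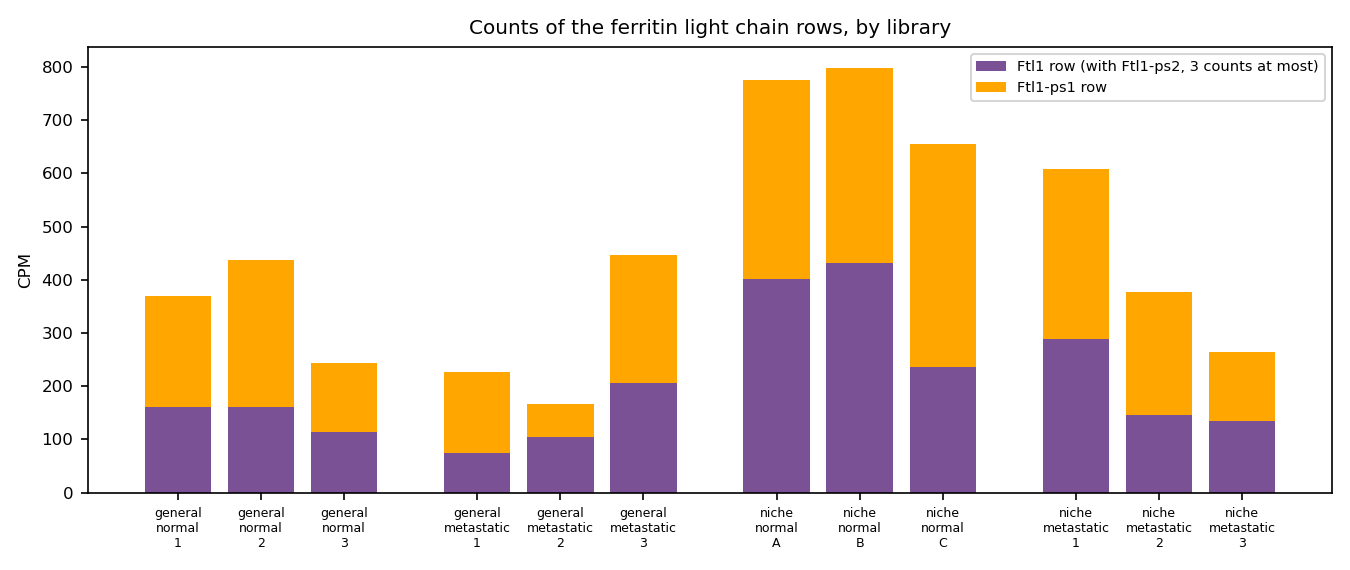
Stacked CPM of the Ftl1 row and the Ftl1-ps1 row in each of the 12 libraries. The copy's part varies from 37.5% to 66.7% without a split between the groups, and the summed height is largest in the 3 niche libraries from normal marrow.

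Slc40a1, the only known exporter of iron ions from mammalian cells, was at 332, 428 and 392 CPM in the general and 2839, 2360 and 1927 in the niche libraries of normal marrow. With metastases the general libraries held 326, 221 and 266 CPM and the niche libraries 1258, 798 and 948. No niche library overlapped the general range in either state. The niche sort was 6.18-fold higher in normal marrow (log2 fold change 2.63 ± 0.25, SE; edgeR adjusted p = 3.38e-06) and 3.70-fold higher in metastatic marrow (1.89 ± 0.24, SE; edgeR adjusted p = 0.000153). Hmox1 and Slc40a1 were called in both comparisons whichever of the 12 libraries was left out.

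Flvcr1, the haem exporter of the plasma membrane, was the transporter with the opposite sign. Normal marrow gave 103, 164 and 173 CPM in the general and 181, 87.1 and 30.6 in the niche libraries, which overlapped, with the wider spread in the niche sort. With metastases Flvcr1 was at 148, 144 and 116 CPM in the general and 87.4, 94.7 and 83.6 in the niche libraries. There all 3 niche libraries were lower, but the log2 fold change of -0.62 ± 0.48 (SE) did not pass (edgeR adjusted p = 0.966).

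Spic, the transcription factor gene needed for iron-recycling macrophages of the spleen and marrow, was low in general macrophages, at 0.549, 0.593 and 4.94 CPM without and 9.89, 3.30 and 3.07 with metastases. Niche libraries held 510, 234 and 193 CPM without and 197, 63.9 and 48.5 with metastases. The lowest niche library was above the highest general library in each state. The log2 fold changes were 7.24 ± 0.95 in normal marrow and 4.25 ± 0.82 in metastatic marrow (SE; edgeR adjusted p = 0.000153 and 0.0117). Their size depended on single general libraries. In normal marrow Spic had 8, 10 and 99 counts in general replicates 1, 2 and 3, and without replicate 3 the value was 9.08. In metastatic marrow it had 271, 73 and 84 counts, and without replicate 1 the value was 5.01. The Spic call in metastatic marrow was lost without general replicate 2 (edgeR adjusted p = 0.0996), general replicate 3 (0.0900) or niche replicate 1 (log2 fold change 3.37, 0.0898), and with limma-voom (adjusted p = 0.198).

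Bach1, the haem-sensing repressor, ran the other way. The general libraries from normal marrow held 555, 602 and 513 CPM and the niche libraries 222, 289 and 167. The groups did not overlap, and Bach1 was 2.46-fold lower in niche macrophages (log2 fold change -1.30 ± 0.26, SE; edgeR adjusted p = 0.00863), a call kept whichever of the 12 libraries was left out. With metastases it was at 386, 265 and 330 CPM in the general and 282, 290 and 255 in the niche libraries, which overlap (log2 fold change -0.24 ± 0.26, SE; edgeR adjusted p = 1). The count of Hmox1 per count of Bach1 was 0.0908 to 0.139 in general and 3.66 to 6.25 in niche macrophages from normal marrow. With metastases this ratio was 0.134 to 0.230 and 1.46 to 2.96.

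**Figure D3:**
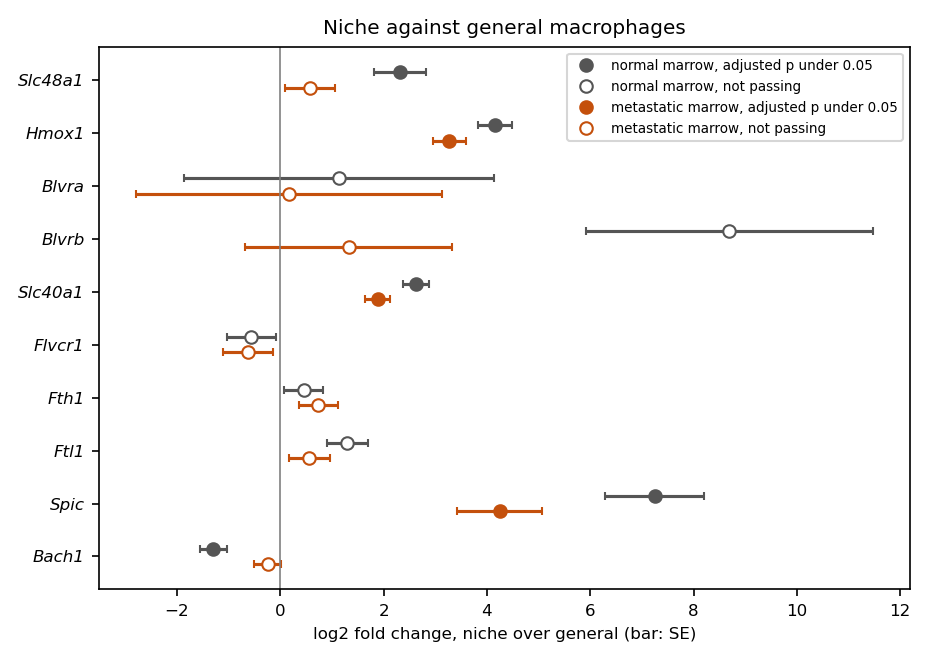
Log2 fold change of niche over general macrophages for the 10 genes, with SE; filled points have an edgeR adjusted p under 0.05. Hmox1, Slc40a1 and Spic are filled in both marrow states, Slc48a1 and Bach1 in normal marrow, and the bars of Blvra and Blvrb are the widest.

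In normal marrow, 6 of 10 genes did not overlap between the sorts, 5 higher and 1 lower in niche macrophages, where 18.8% of all genes tested did not overlap. With metastases 4 of 10 did not overlap, 3 higher and 1 lower, where 17.2% of all genes did not. The median log2 fold change of the 10 genes was 1.80 in normal marrow, and the same with Blvrb set to its bound against 3 counts per library, beside 0.19 for all genes. In metastatic marrow it was 0.66 beside 0.04. In normal marrow 8 of the 10 had a log2 fold change above 0.

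The order of levels was read per kilobase of transcript, with the Ftl1 row taken alone at first. In general macrophages from normal marrow Fth1 stood first at 312 ± 101.5 CPM per kilobase (SD, n = 3), above Ftl1 at 150.1 ± 27.6, Slc40a1 at 114 ± 14.4 and Bach1 at 94.9 ± 7.61, where Slc40a1 overlapped both Ftl1 and Bach1. Hmox1 (39.2 ± 8.50) and Flvcr1 (36.4 ± 9.39) came next and overlapped each other, followed by Slc48a1 at 17.4 ± 4.26, with Spic and Blvrb last. In niche macrophages from normal marrow Slc40a1 stood first at 705 ± 135 CPM per kilobase (SD, n = 3), next to Hmox1 at 702 ± 170, Fth1 at 429 ± 159 and Ftl1 at 368 ± 109, each overlapping its neighbour in that order. Spic followed at 177 ± 97.8 and Slc48a1 at 86.8 ± 20.9, while Bach1 stood below them at 38.5 ± 10.3. In niche macrophages from metastatic marrow Hmox1 (353 ± 155), Fth1 (334 ± 189), Slc40a1 (297 ± 69.7) and Ftl1 (196 ± 89.0) formed an overlapping top group. The place of the ferritin light chain turned on the split of its counts. With the Ftl1-ps1 row added, the general libraries of normal marrow were at 362 ± 102 CPM per kilobase (SD, n = 3), with a range overlapping that of Fth1. In niche macrophages the light chain then had the highest mean of the 10 genes, at 767 ± 79.7 in normal and 430.4 ± 181 in metastatic marrow (SD, n = 3 each), overlapping Slc40a1 and Hmox1. The Fth1 values use the 929-base transcript; with its 1494-base form Fth1 would stand at 194 CPM per kilobase in general and 266.5 in niche macrophages from normal marrow.

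Other genes of haem and iron handling were tested too, where 2.47% of all genes were called in normal and 0.831% in metastatic marrow. Of 7 further haem handling genes tested, 1 was called, higher, in each marrow state: Cd163, the haemoglobin scavenger receptor and a sorting antigen, with log2 fold changes of 6.22 and 5.20 (edgeR adjusted p = 0.000187 and 0.00115). Of 19 further iron genes, 2 were called higher in normal marrow and 1 in metastatic marrow. Trf, transferrin, was at 39.1 to 53.8 CPM in general and 387 to 596 in niche macrophages from normal marrow (log2 fold change 3.27 ± 0.55, SE; edgeR adjusted p = 0.00195) and was also higher in metastatic marrow (3.33 ± 0.55, SE; edgeR adjusted p = 0.00283). Tfrc, the transferrin receptor that erythroblasts carry in large amounts, was higher by 1.61 ± 0.41 in normal marrow (SE; edgeR adjusted p = 0.0440), and in metastatic marrow its value of 1.15 did not pass (edgeR adjusted p = 0.415). The Tfrc call was lost without general replicate 1, 2 or 3, niche library C, general metastatic replicate 1, or niche metastatic replicate 1 or 2 (edgeR adjusted p from 0.0584 to 0.205), with only the libraries compared (edgeR adjusted p = 0.135) and with limma-voom (adjusted p = 0.352). The median of the 19 iron genes was 0.54 in normal marrow and 0.04 in metastatic marrow, beside 0.19 and 0.04 for all genes.

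Of the 7 genes for partners and relatives of BACH1 and NRF2, 0 were called by edgeR in either state. Bach2 had the smallest p in normal marrow (log2 fold change 3.06 ± 1.24, SE; edgeR adjusted p = 0.224; by DESeq2 adjusted p = 0.0352) and Mafk in metastatic marrow (1.00 ± 0.84, SE; edgeR adjusted p = 1). Of 10 NRF2 target genes tested, Gclm, a subunit of the enzyme that limits glutathione synthesis, was called higher in normal marrow (2.73 ± 0.58, SE; edgeR adjusted p = 0.0130). That call was lost without general replicate 1 or 3 (edgeR adjusted p = 0.0821 and 0.0801), with only the libraries compared (edgeR adjusted p = 0.0990) and with limma-voom (adjusted p = 0.116). In metastatic marrow 0 of 10 passed, and Gsr, glutathione reductase, came nearest at -0.67 ± 0.26 (SE; edgeR adjusted p = 0.487; limma-voom adjusted p = 0.0184). The median of these 10 targets was -0.69 in normal and 0.24 in metastatic marrow, beside log2 fold changes of 4.16 and 3.27 for Hmox1, itself an NRF2 target.

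Promoter windows from 250 bases before to 50 after the start site (RefSeq, GRCm38.p6) were searched on both strands for Bach1, Blvra, Blvrb, Flvcr1, Fth1, Ftl1 and Spic. The antioxidant response core TGACNNNGC, which NRF2 and BACH1 share, was found in 2 of their 9 windows and in 12.4% of all 32851 windows. The matches were GCTCGGTCA in the Blvra window on chromosome 2, on the strand opposite the gene, and TGACCCCGC in the Flvcr1 window on chromosome 1. These are matches of letters and say nothing of binding. No window was available for Hmox1, Slc40a1 and Slc48a1, so the promoters of these genes were not searched, nor were sites outside the windows.

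Markers of several cell types moved with the same sorts, among them those of red-cell-eating macrophages and of erythroid cells. Of 13 genes of haemophagic macrophages, 11 were called higher in the niche sort of normal marrow and 9 in metastatic marrow, Vcam1 and Cd163 being sorting antigens. Among them Itgad was higher by 8.56 and 8.58 on the log2 scale, Mrc1 by 5.97 and 4.87, and Maf by 4.42 and 4.87. The Itgad call in normal marrow was lost with limma-voom (adjusted p = 0.0521). Their sum was 257 to 388 CPM in general and 7140 to 8080 in niche libraries of normal marrow, and 255.5 to 281 and 2984 to 5676 in those of metastatic marrow. The 15 erythroid markers summed to 32.3 to 152 CPM in general and 960 to 1464 in niche libraries of normal marrow, and to 85.9 to 127 and 800 to 1864 in those of metastatic marrow. Of 13 erythroid genes tested, 4 were called higher in normal and 3 in metastatic marrow, and none was at 0 in every library of a group. Erythroblasts also express several of the 10 genes, among them Flvcr1, Fth1, Ftl1 and Blvrb, and the part of erythroid RNA in these levels was not tested.

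The 11 markers of B and plasma cells summed to 311 to 463 CPM in general and 1299 to 2455 in niche libraries of normal marrow, and to 390.5 to 460 and 1379 to 4210 with metastases, with 4 called higher in each state. The 10 monocyte markers summed to 6457 to 6814 CPM in general and 1713 to 2122 in niche libraries of normal marrow, and to 6331 to 6684 and 1404 to 1651 with metastases, with 6 and 5 called lower. Of the 12 neutrophil markers, 7 and 5 were called lower in the niche sort, with sums of 15300 to 23820 and 11390 to 12160 CPM with metastases. The 8 stromal and endothelial markers summed to 5.09 to 25.2 CPM in general and 132 to 161 in niche libraries of normal marrow, with Kitl called higher, and to 8.96 to 23.4 and 37.6 to 120 with metastases, with none called. Of these, Lepr was at 0 in every library of 3 groups, all but niche metastatic, and Cdh5 in every general library. The 8 eosinophil markers overlapped between the sorts in normal marrow and were lower in niche macrophages with metastases (7.87 to 118 against 150 to 256 CPM), with none called.

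Mitochondrial transcripts took 0.0846% to 0.400% of counts in general and 1.24% to 1.80% in niche libraries, and small non-coding RNA 19.8% to 27.9% and 9.998% to 19.6%. In normal marrow 9488 to 10604 genes had at least 10 counts in general and 7684 to 9001 in niche libraries. The part of these cell types, RNA classes and numbers of genes in the levels of the 10 genes was not tested.

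The genes whose log2 CPM over the 12 libraries was most like that of Hmox1, among 8136 compared, were Vcam1 (Pearson r = 0.989), Ccr3 (0.989), Igf1 (0.987), Snx24 (0.986) and Slc1a3 (0.980). For Slc40a1 they were Wwp1 (0.975), Snx5 (0.975), Pld3 (0.967), Sdc3 (0.964) and Mast4 (0.960). Among the 10 genes themselves, Hmox1 and Slc40a1 gave r = 0.960 and Hmox1 and Bach1 r = -0.734. The 12 libraries form 4 groups, so these values largely describe the difference between the sorts.

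Metastatic and normal marrow were then compared within each sort, to see whether carrying bone metastases went with a change in these genes. None of the 10 genes passed over all genes by edgeR in either sort. In niche macrophages 3 of them, Slc40a1, Hmox1 and Slc48a1, were lower in every library from metastatic marrow, and the other 7 overlapped between states. Both of these comparisons share their libraries with the comparisons of sorts, so they are not independent of them.

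In niche macrophages, Slc40a1 came nearest: its 3 metastatic libraries, at 798 to 1258 CPM, were all below the 3 normal ones, at 1927 to 2839. Its mean was 2.37-fold lower, or -1.25 ± 0.24 on the log2 scale (SE; unadjusted p = 4.22e-05, edgeR adjusted p = 0.0825). Adjusted values for Slc40a1 crossed the threshold without niche library B (edgeR adjusted p = 0.0401) or C (0.0222), without a low-count filter (0.0209), and with DESeq2 (1.38e-05) or limma-voom (0.000403). Hmox1, at 404 to 835 CPM against 859 to 1388, also did not overlap, at -0.99 ± 0.29 on the log2 scale (SE; edgeR adjusted p = 0.313; DESeq2 adjusted p = 0.0252; limma-voom adjusted p = 0.0444). Slc48a1, at 57.1 to 143 CPM against 186 to 281, was the third that did not overlap (-1.27 ± 0.49, SE; edgeR adjusted p = 0.381).

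Spic (-1.60 ± 0.74, SE; edgeR adjusted p = 0.389) and Ftl1 (-0.91 ± 0.39, SE; edgeR adjusted p = 0.381) overlapped between states. Fth1 (-0.36 ± 0.38, SE), Flvcr1 (-0.17 ± 0.48, SE) and Bach1 (0.29 ± 0.26, SE) had the smallest differences, with edgeR adjusted p of 0.819, 0.973 and 0.743. In all, 0 of 10 genes were called by edgeR where 0.00776% of all genes were, 2 by DESeq2 and 2 by limma-voom. An unadjusted p under 0.05 was found for 5 of 10, beside 12.7% of all genes, and 3 of 10 were lower without overlap, where 7.11% of all genes were. The median of the 10 was -1.12, beside -0.17 for all genes.

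**Figure D4:**
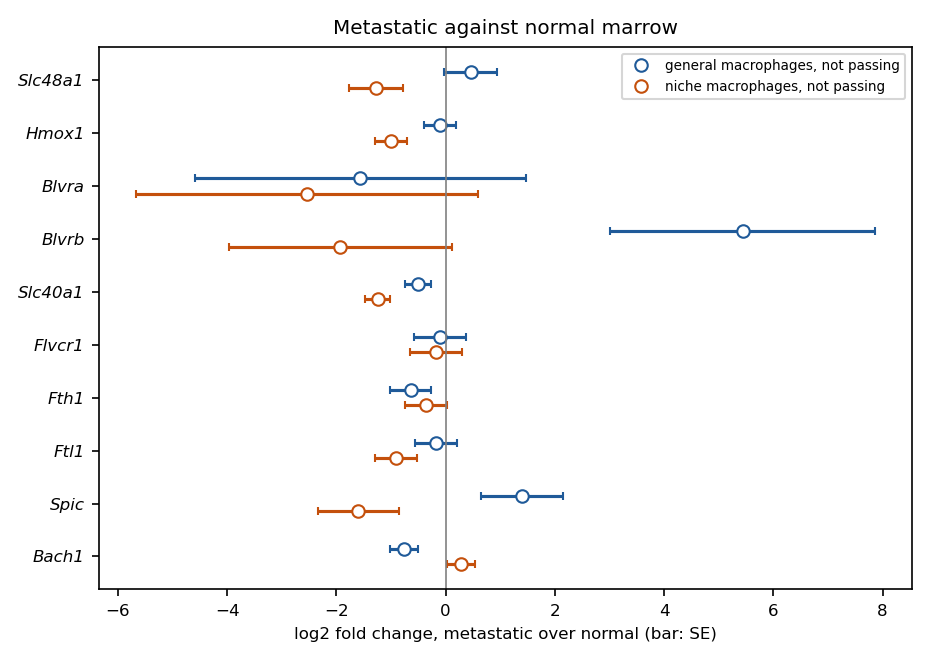
Log2 fold change of metastatic over normal marrow for the 10 genes in each sort, with SE; open points did not pass. In niche macrophages Slc40a1, Hmox1, Slc48a1, Spic and Ftl1 lie between -0.91 and -1.60, and in general macrophages Slc40a1 and Bach1 lie furthest below 0 relative to their SE.

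Niche replicate 1 from metastatic marrow was the highest of its group for Slc48a1, Hmox1, Slc40a1, Fth1, Ftl1 and Spic, and likewise for the sorting antigens. Its Vcam1 was at 1621 CPM and those of replicates 2 and 3 at 938 each, against 2088 to 2248 in normal marrow. Its Cd163 was at 789 CPM beside 297 and 344. The summed haemophagic markers given above, 2984 to 5676 CPM in metastatic against 7140 to 8080 in normal marrow, were also lower, and highest in replicate 1 within the metastatic group, and the monocyte sums were lower too (1404 to 1651 against 1713 to 2122), as were those of the macrophage-defining genes (5558 to 6980 against 8494 to 10110). The neutrophil sums overlapped (11390 to 12160 against 10790 to 12580), with 7 of its 12 genes at a log2 fold change above 0 and 4 genes (Cxcr2, Ly6g, Mmp9 and Ltf) lower without overlap. At least 10 counts were reached by 9582 to 11600 genes in metastatic and 7684 to 9001 in normal niche libraries. None of these marker genes passed between marrow states by edgeR, and the part of these cell types and of the number of genes detected in the levels of the 10 genes was not tested.

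In the niche libraries, counts were also read per count of Vcam1, a ratio chosen after the values were seen. Hmox1 was at 0.400 to 0.617 per Vcam1 count in normal and 0.431 to 0.515 in metastatic marrow, and Slc40a1 at 0.898 to 1.26 and 0.776 to 1.01. Both pairs of ranges overlapped, as did those of Slc48a1 (0.0868 to 0.125 and 0.0609 to 0.0881), Spic (0.0899 to 0.227 and 0.0517 to 0.121), Fth1 (0.115 to 0.241 and 0.198 to 0.315) and Ftl1 (0.110 to 0.207 and 0.143 to 0.178). Vcam1 was the gene most correlated with Hmox1 over all 12 libraries, and the correlation within the niche libraries alone was not computed. How far that choice set the overlap of the Hmox1 ratios was not tested, so the overlap is given as a description. In general macrophages, where Vcam1 was low, Hmox1 per Vcam1 count was 0.887 to 1.15 in normal and 0.560 to 0.911 in metastatic marrow, which overlapped, and Slc40a1 was at 3.83 to 9 and 3.03 to 3.52, which did not. The part of a different mix of sorted cells in these levels was not tested.

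**Figure D5:**
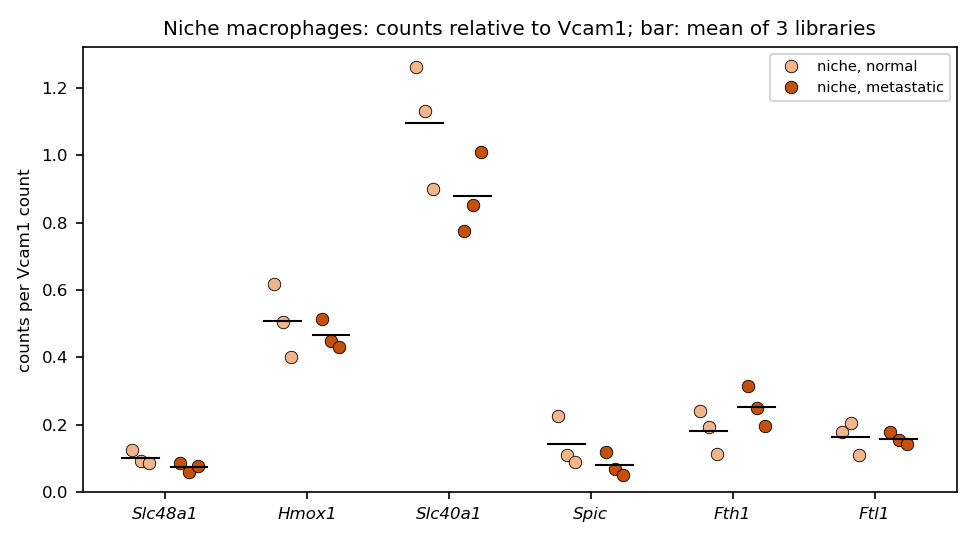
Counts of 6 genes per count of Vcam1 in the niche libraries from normal and metastatic marrow; points are libraries and bars the means of 3. The ranges of the marrow states overlap for all 6 genes.

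In general macrophages 0 of 10 genes were called by edgeR, where 0.0155% of all genes were, and 0 by DESeq2 or limma-voom. Bach1 was at 265 to 386 CPM in metastatic and 513 to 602 in normal marrow (log2 fold change -0.77 ± 0.26, SE; unadjusted p = 0.00773, edgeR adjusted p = 0.944). Slc40a1 was at 221 to 326 CPM against 332 to 428 (-0.51 ± 0.23, SE; edgeR adjusted p = 0.944). These 2 of 10 were lower without overlap, where 5.64% of all genes were. An unadjusted p under 0.05 was found for 3 of 10, Blvrb being the other, beside 5.12% of all genes. Hmox1 (-0.10 ± 0.29, SE) and Slc48a1 (0.46 ± 0.48, SE) had intermixed libraries, both with an edgeR adjusted p of 1. The median of the 10 was -0.14, beside -0.01 for all genes, and likewise with Blvrb at its bound.

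Whether the difference between marrow states itself differed between the sorts was tested as an interaction. By edgeR 0 of 10 genes passed, as did 0% of all genes, and 0 of 10 by DESeq2 or limma-voom. An unadjusted p under 0.05 was found for 6 of 10, beside 7.89% of all genes. Bach1 had the smallest p of the 10, with a log2 difference of 1.06 ± 0.36 (SE; unadjusted p = 0.00916, edgeR adjusted p = 0.460), the log2 fold change being -0.77 in the general and 0.29 in the niche sort. Spic (-3.00 ± 1.05, SE; edgeR adjusted p = 0.472), Slc48a1 (-1.73 ± 0.69, SE; edgeR adjusted p = 0.584), Hmox1 (-0.89 ± 0.41, SE) and Slc40a1 (-0.74 ± 0.33, SE; edgeR adjusted p = 0.625 for both) had the other sign. A difference between the sorts in their response to metastasis was therefore not shown for any of the 10 genes.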

How the data were processed

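RNA was measured in 12 libraries of sorted marrow macrophages, prepared with ribosomal RNA depletion as the labels' protocols state. The values, as deposited by the authors, are expected counts, 73.9% of them whole numbers. The submitters' processing notes name Partek, STAR 2.7.3a, DESeq2 1.40.2, R 4.3.1 and mm10 without roles; the counting program, annotation and strandedness are not given in the sources used here, so overlapping and antisense genes cannot be told apart.

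Expected counts were rounded, kept by filterByExpr (12882 genes), scaled by TMM (trimmed mean of M values) and fitted over all 12 libraries as 4 group means with edgeR 4.0.16 quasi-likelihood tests in R 4.3.3. P-values were adjusted by Benjamini-Hochberg over all tested genes, and called means an adjusted p under 0.05. The procedure was tested on simulated counts. CPM sets a count against its library's TMM-scaled total. Limits of 3 counts allow for counting error alone, because no molecular identifiers were used to remove PCR copies. Levels per kilobase use the shortest principal GENCODE M21 transcript.

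Niche libraries from normal marrow carry column numbers that differ from their titles and are called A, B and C. Within a group, library pairs differed by a chi-square of at least 142 per degree of freedom, so each was counted once.

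The 10 genes and the other lists were chosen with earlier results of these data known. Named besides the 10 genes were, in each comparison of sorts, up to 4 called genes of each haem, iron, BACH1 partner, NRF2 target and haemophagic list (the smallest p where none was called), and the 5 genes most correlated with Hmox1 and with Slc40a1 (prior count 2, mean of at least 10 CPM). The alternatives tried were DESeq2 1.42.0, limma-voom with quality weights (limma 3.58.1), scaling by RLE or by library size only, no filter or a filter of 10 counts in every library, only the libraries compared, a replicate block, removal of haemoglobin, immunoglobulin, mitochondrial and small RNA genes, ferritin rows summed with their copies, and leaving out each library.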

Additional observations from a re-analysis of the deposited data

How the results depend on the processing

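The common biological coefficient of variation over all genes was 1.3, with 3 libraries a group. Over all genes, niche against general macrophages in normal marrow gave 318 calls, 1825 with DESeq2, 186 with limma-voom, 163 with only the libraries compared and 176 to 402 leaving out each library. In metastatic marrow it gave 107 calls, 480 with DESeq2, 178 with limma-voom and 66 to 121 leaving out each library. Metastatic against normal marrow gave 2 calls in general macrophages, 0 with library size only, 5 without a filter, 141 with DESeq2, 23 with limma-voom and 0 to 4 leaving out each library. In niche macrophages it gave 1 call, 0 with RLE, 0 with library size only, 0 with only the libraries compared, 3 without a filter, 3 with 10 counts in every library, 2 without haemoglobin, immunoglobulin, mitochondrial and small RNA genes, 954 with DESeq2, 11 with limma-voom and 0 to 66 leaving out each library. The interaction gave 0 calls, 410 with DESeq2 and 0 to 16 leaving out each library.

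Of the 10 genes, niche against general macrophages called 4 to 5 in normal and 2 to 3 in metastatic marrow leaving out each library. Metastatic against normal niche macrophages called 0, 1 without a filter, 2 with DESeq2, 2 with limma-voom and 0 to 1 leaving out each library. In general macrophages and the interaction all such fits called 0 of the 10.

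Scaling by library size only moved the median of all genes by 0.24 in metastatic niche against general, 0.24 in niche metastatic against normal and 0.23 in the interaction, and the share of higher calls in the first from 69.2% to 82.8%. The sign of Flvcr1 in niche macrophages turned with library size only (0.11), 10 counts in every library (0.0614) and limma-voom (0.32), and in the interaction with the same settings (0.20, 0.13 and 0.43). Blvra turned with limma-voom in normal marrow (-0.73) and in the interaction (1.90). Leaving out each library, Blvra ranged from -7.62 to 6.87 and from -5.21 to 6.57 between sorts in normal and metastatic marrow, from -7.97 to 4.17 and from -7.91 to 6.22 between states in general and niche macrophages, and from -6.70 to 7.78 in the interaction. In general macrophages Hmox1 ranged from -0.20 to 0.0911, Slc48a1 from -0.0361 to 0.83, Ftl1 from -0.71 to 0.0917 and Flvcr1 from -0.30 to 0.0339 between states. In niche macrophages Flvcr1 ranged from -0.60 to 0.58, and in the interaction Flvcr1 ranged from -0.50 to 0.68 and Fth1 from -0.29 to 0.63. None of these reversed values belonged to a call, and the cause was not tested.

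The shared replicate numbers of 3 groups were checked as possible pairs. Over 9 same-numbered pairs, deviations correlated at -0.00738 to 0.0337, beside -0.0335 to 0.014 for pairs with different numbers. In 11 of 18 checks, each among the 3 libraries of another group, a library correlated best with its own number. All these correlations were small, and whether the numbers pair libraries was not settled. With a replicate block, niche against general in metastatic marrow gave 117 calls and 3 of the 10 genes, and metastatic against normal general macrophages gave 3 calls and 0 of the 10. No block was used with the niche libraries from normal marrow, whose column numbers differ from their titles.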
